A study of Mus musculus with 6 samples.

Results

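Interferon-stimulated genes, the genes that cells switch on after sensing interferon, were examined in messenger RNA from whole hearts. The 34 genes were chosen by name, as a hand-written list, out of 36567 genes in the files. ApoE-/- Timp3-/- mice (below, double mutants) lacked both apolipoprotein E and the metalloproteinase inhibitor TIMP3 and gave libraries 4, 5 and 6. ApoE-/- littermates gave libraries 1, 2 and 3. All 6 mice therefore carried the Apoe deletion, which raises blood cholesterol and promotes atherosclerosis, and all were 32 weeks old. No library came from a mouse with intact Apoe, and the labels state neither which part of Timp3 was deleted nor an interferon treatment or infection.

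Type I interferons bind a surface receptor whose kinases, JAK1 and TYK2, activate transcription factors, STAT2 among them. STAT2 and IRF9 are parts of a complex that binds the interferon-stimulated response element in the promoters of target genes, and interferon gamma acts on a separate element, the gamma-activated site. The products block viral entry, degrade or sequester viral RNA, stop translation, or feed back on the pathway. In an uninfected heart, endothelial cells, macrophages and circulating cells are known to keep a low level of many of these transcripts.

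Promoter sequences are shown for 4 listed genes that hold the core of the interferon-stimulated response element, to make it visible. Not all listed genes hold it. Upstream sequence of 250 bases is printed 5′ to 3′ on the gene's strand, from RefSeq on build GRCm38.p6, ending at the base before the start site. Capitals mark GAAA, any 2 bases and GAAA, or the reverse complement, the core of the interferon-stimulated response element. The genes are Oas1a (chr5:120907526-120907775, minus strand), Ifit1 (chr19:34640639-34640888, plus strand), Gbp7 (chr3:142530086-142530335, plus strand) and Isg15 (chr4:156200819-156201068, minus strand). Overlapping matches form 1 run of capitals.
Oas1a: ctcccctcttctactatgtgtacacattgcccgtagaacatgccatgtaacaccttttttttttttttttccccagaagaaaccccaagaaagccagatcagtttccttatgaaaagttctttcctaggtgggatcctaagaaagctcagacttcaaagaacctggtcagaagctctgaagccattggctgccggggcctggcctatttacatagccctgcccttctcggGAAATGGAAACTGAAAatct
Ifit1: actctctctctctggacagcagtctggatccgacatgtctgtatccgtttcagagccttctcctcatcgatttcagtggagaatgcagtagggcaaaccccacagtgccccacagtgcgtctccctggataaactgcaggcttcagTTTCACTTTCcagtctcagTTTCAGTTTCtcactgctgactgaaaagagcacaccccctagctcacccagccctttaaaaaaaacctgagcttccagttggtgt
Gbp7: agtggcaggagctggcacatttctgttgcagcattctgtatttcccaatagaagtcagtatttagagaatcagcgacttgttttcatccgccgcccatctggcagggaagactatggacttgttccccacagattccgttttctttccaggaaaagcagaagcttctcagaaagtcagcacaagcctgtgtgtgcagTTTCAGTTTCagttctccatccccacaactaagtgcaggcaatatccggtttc
Isg15: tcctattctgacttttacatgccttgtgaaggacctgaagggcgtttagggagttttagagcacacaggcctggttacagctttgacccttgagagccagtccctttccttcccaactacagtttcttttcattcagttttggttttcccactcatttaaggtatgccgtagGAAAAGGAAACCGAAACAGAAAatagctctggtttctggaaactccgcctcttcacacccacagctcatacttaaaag

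The run in Isg15 held 3 overlapping matches, with first bases at -78, -72 and -66 from the start site. Oas1a held 2 overlapping matches, Ifit1 held 2 separate ones and Gbp7 held 1. Windows of 300 bases, 50 of them past the start site, were given for 27 of the 34 genes, and 15 of the 27 held the motif on either strand in at least 1 window. Of the 8 genes with a window and an unadjusted p under 0.05 by limma in the comparison below, 4 held it. Ifi44, Irf7, Ifit2 and Oasl2 were without a match. Of all 32851 windows, 3.44% held it, against 15 of the 33 windows of the listed genes. The gamma-activated site, searched as TTCNNNGAA, stood in 9 of the 33 windows of the listed genes and in 8.30% of all windows. Both motifs overlapped in Bst2 and Ifitm3. A match is a description of letters, not of binding.

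Libraries held between 654 and 1339 aligned megabases, with 910, 732 and 683 in libraries 4, 5 and 6 and 654, 1339 and 827 in libraries 1, 2 and 3. Levels are given in FPKM, sequenced fragments scaled by transcript length and by library size, and added up over the transcripts of a gene. Timp3 was listed at 20.2, 28.0 and 29.6 FPKM in double mutants and 52.1, 38.0 and 36.3 FPKM in controls, lower in every double mutant but not lost (adjusted p = 0.29 by limma). With the deleted part unknown, this does not check the labels. Apoe, deleted in all mice, was at 3.50, 2.08 and 1.84 FPKM in double mutants and 4.15, 2.29 and 2.85 FPKM in controls. Cardiomyocyte markers (Myh6, Tnnt2, Actc1, Myl2, Ryr2) summed to 17487, 13139 and 12476 FPKM in libraries 4, 5 and 6 and 11415, 13368 and 11860 FPKM in libraries 1, 2 and 3. Libraries differed in other cell content. Red cell genes (4 globin genes, whose copies share reads, and Alas2) summed to 24052 FPKM in library 4, against 763 and 2156 FPKM in libraries 5 and 6 and 191 to 1028 FPKM in controls. Atrial genes summed to 177, 863 and 1423 FPKM in libraries 4, 5 and 6 and 1699, 815 and 113 FPKM in libraries 1, 2 and 3. In whole-tissue libraries, fewer cells of a type and less RNA per cell cannot be told apart.

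Most interferon-stimulated genes were lower in double mutants, yet none passed limma's test over all 11380 genes tested. With no filter on low values, so that all 34 genes entered, 27 had a difference below 0 and 7 above. Of all genes in that fit, 51.4% lay below 0. The mean filter (1 FPKM over the 6 libraries) kept 31 of the 34, of which 25 lay below 0 and 6 above. Among all tested genes 51.2% lay below 0. The median log2 difference of the 31 was -0.40, and the median of all tested genes was -0.01. At an adjusted p under 0.05, 0 of the 31 were called, where 5 of 11380 genes (0.0439%) were called. Lists were named with earlier results of these data known, so no p is given for the group as a whole.

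Below that threshold the counts leaned one way. At an unadjusted p under 0.05, 11 of the 31 were lower (35.5%), against 5.2% of all genes tested, and 0 were higher, against 6.94% of all genes. The count depended on how transcripts and libraries were treated. It was 4 of 27 with the strongest transcript of each gene (353 of 9421 genes in all) and 7 of 28 with reference transcripts only (419 of 10085). It was 18 of 31 with scaling to the same summed FPKM (1565 of 11380) and 19 of 31 with libraries weighted by spread (1122 of 11380). None of the 7 listed genes with a mean of at least 5 FPKM was among them (0 of 7, and 375 of 5712 genes in all). In the fit without a filter, 11 of 34 were lower at that p, against 3.68% of all genes. The groups stood apart with double mutants lower in 11 of the 31, against 9.21% of all genes, and with double mutants higher in 0, against 9.98%. In 10 genes both held, for which no share over all genes was computed. These shares describe the list and are no test. Of the 31, 4 had a mean under 1 FPKM in double mutants and passed the filter through their controls, whereas 0 passed through the double mutants in that way. These 4 were Ifi44, Ifit1, Oas1a and Irf7, and all are among the 10 genes in which both held. Irf7 enters each of these counts on listed zeros.

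**Figure D1:**
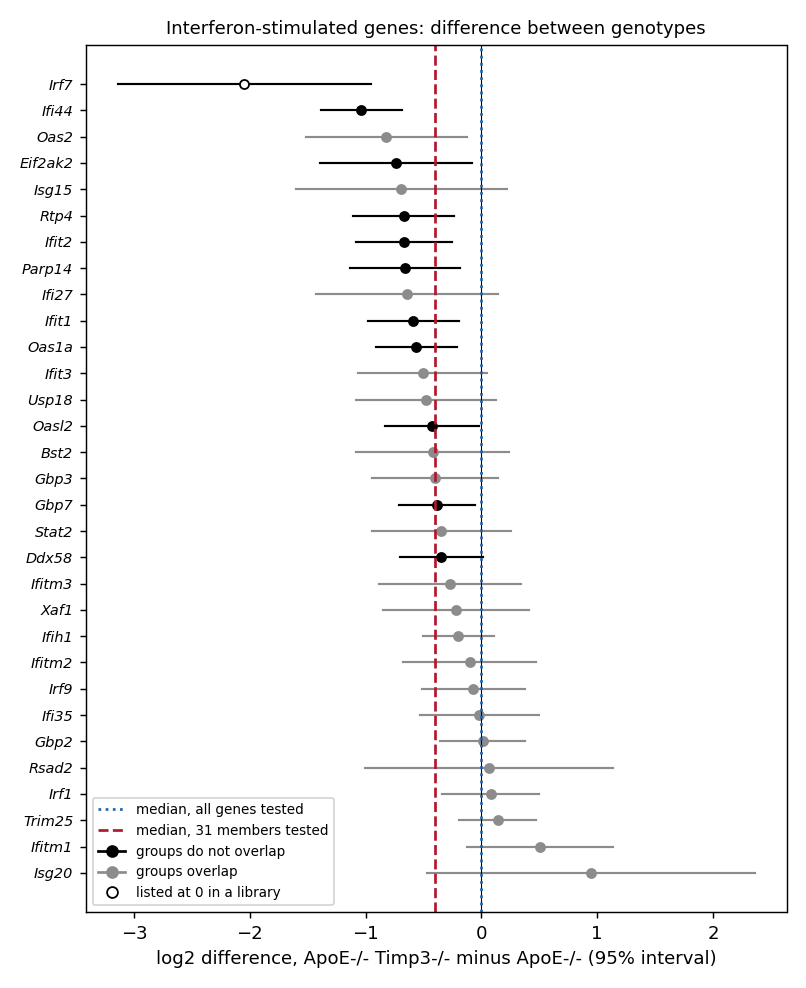
Log2 difference between double mutants and controls (x axis, log2(scaled FPKM + 1), with 95% intervals from limma) for the 31 interferon-stimulated genes tested, ordered by size (y axis). Black lines mark the 11 genes whose groups did not overlap, grey the others, and the open point is Irf7, listed at 0 in 2 libraries. The dashed line is the members' median of -0.40 and the dotted line that of all genes tested, -0.01.

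Of the transcription factors, Irf7 had the widest gap, but its values rest on listed zeros. Irf7 (chromosome 7, 148448605 to 148452380, NCBIM37) encodes the factor that amplifies interferon production. It was listed at 0, 0 and 2.21 FPKM in libraries 4, 5 and 6 and at 4.25, 7.18 and 4.56 FPKM in libraries 1, 2 and 3. As listed, the groups did not overlap. The fitted log2 difference of -2.05 (95% interval -3.14 to -0.95, adjusted p = 0.24 by limma) takes the zeros as levels, so it is no measured fold. A 0 in these files was not proof of absent RNA. All 13 reference transcripts of Irf7 have several exons. In library 4, 7 of them were listed at 0 although the file marked every intron and inner exon as covered by reads. In library 5 this held for 4 of them. The same mark stood on transcripts at 0 in libraries 6, 1, 2 and 3 as well, 3, 1, 6 and 5 of them. A transcript of a neighbour, overlapping the gene's end by position, was listed at 2.43, 1.25 and 1.02 FPKM in libraries 4, 5 and 6 and at 1.25, 0 and 1.151 FPKM in libraries 1, 2 and 3. Without reads, no level can be given for Irf7 in libraries 4 and 5.

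Irf9 and Stat2, whose products act in the complex that binds the response element, showed smaller differences. Irf9 averaged 3.61 ± 1.2 scaled FPKM in double mutants and 3.72 ± 0.110 in controls (SD, n = 3 a group, here and for later means), a log2 difference of -0.07. Transcripts not counted for Irf9 but overlapping its exons by position were at 3.93, 3.275 and 4.43 FPKM in libraries 4, 5 and 6. In libraries 1, 2 and 3 these were at 3.94, 3.47 and 3.80 FPKM, so reads may have been divided between them and Irf9. Stat2 was at 2.48, 1.36 and 1.70 FPKM in libraries 4, 5 and 6 and 2.41, 1.93 and 3.97 FPKM in libraries 1, 2 and 3. Its groups overlapped. In libraries 3 and 4 every reference transcript of Stat2 was listed at 0, and the level there came from transcripts assembled in that library alone. Irf1, an early factor downstream of interferon gamma, averaged 6.21 ± 1.42 scaled FPKM in double mutants and 5.79 ± 1.03 in controls (log2 difference 0.08). Without library 4 the difference of Irf1 was -0.08. Transcripts not counted for Irf1 but overlapping its exons were at 6.37, 0 and 1.33 FPKM in libraries 4, 5 and 6. They were at 3.13, 2.64 and 3.03 FPKM in libraries 1, 2 and 3, and their part in the level of Irf1 was not tested.

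Of the sensors, only Ddx58 and Ifih1 passed the filter. Ddx58, which encodes the RNA sensor RIG-I, was at 2.44, 1.502 and 2.20 FPKM in libraries 4, 5 and 6 and 4.02, 2.48 and 2.60 FPKM in libraries 1, 2 and 3. The groups did not overlap (log2 difference -0.34, 95% interval -0.70 to 0.01, adjusted p = 0.43 by limma). With the strongest transcript alone the Ddx58 difference was 0.06. Ifih1, the gene of the long-RNA sensor MDA5, averaged 2.38 ± 0.338 scaled FPKM in double mutants and 2.87 ± 0.265 in controls, and its groups overlapped. Dhx58, a helicase that modulates both sensors, was under the filter, at 0.49, 0.26 and 0.35 FPKM in double mutants and 1.70, 0.87 and 0.83 FPKM in controls. Zbp1, a nucleic acid sensor that can trigger cell death, was under it as well, at 0.39 to 0.85 FPKM in double mutants and 0.80 to 1.05 FPKM in controls.

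Of the 8 tested effectors acting on viral RNA or translation, 6 were lower at an unadjusted p under 0.05 by limma (75%), against 5.2% of all genes. Of these 6, all but Ifit1 drew part of their level from assembled transcripts in some libraries. The IFIT proteins bind foreign RNA and block its translation, and their 3 listed genes lie close together on chromosome 19 (34625184 to 34724499, NCBIM37). Ifit1, a single-transcript gene, was at 1.34, 0.65 and 0.75 FPKM in libraries 4, 5 and 6 and 1.94, 1.84 and 1.96 FPKM in libraries 1, 2 and 3. Every double mutant was below every control, with library 4 between the other double mutants and the controls. The Cufflinks interval in the file ran from 1.01 to 1.67 FPKM in library 4 and reached down to 1.46 FPKM in library 1, so counting error alone does not keep that pair apart. Its log2 difference was -0.59 ± 0.17 SE (adjusted p = 0.26 by limma). Ifit1 passed the filter only through its controls.

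Ifit2 followed with 2.32, 1.68 and 1.85 FPKM in libraries 4, 5 and 6 and 3.27, 4.85 and 3.54 FPKM in libraries 1, 2 and 3. Again the groups did not overlap (log2 difference -0.67 ± 0.18 SE, adjusted p = 0.26 by limma). Part of the level of Ifit2 was from assembled transcripts in every library, and most of it in library 2. Reference transcripts alone gave 1.31, 0.960 and 0.997 FPKM in libraries 4, 5 and 6 and 2.44, 1.35 and 2.53 FPKM in libraries 1, 2 and 3. On that level libraries 2 and 4 nearly met, and the log2 difference was -0.52 (unadjusted p = 0.060 and adjusted p = 0.51 by limma). Ifit3 was at 2.91, 0.98 and 2.11 FPKM in libraries 4, 5 and 6 and 2.94, 3.46 and 3.27 FPKM in libraries 1, 2 and 3. Here library 4 reached the controls after scaling, and the difference of -0.51 had an unadjusted p of 0.069 (adjusted p = 0.46 by limma). Much of the level in library 4 was from 1 assembled transcript. The reference transcript of Ifit3 alone was at 0.585, 0.977 and 1.72 FPKM in libraries 4, 5 and 6 and 2.94, 2.42 and 3.27 FPKM in libraries 1, 2 and 3. On that level library 4 was the lowest, the groups did not overlap, and the log2 difference was -0.88 (unadjusted p = 0.013 and adjusted p = 0.39 by limma). The IFIT genes resemble each other in sequence, so reads may have been shared among them.

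The OAS enzymes make 2′-5′ oligoadenylates that activate RNase L. Oas1a, part of a cluster of close copies that could share reads, was at 0.75, 0.39 and 0.78 FPKM in libraries 4, 5 and 6 and 1.62, 1.44 and 1.32 FPKM in libraries 1, 2 and 3. Double mutants averaged 0.65 ± 0.187 scaled FPKM and controls, which lay close together, 1.42 ± 0.0237. That closeness rests on assembled transcripts in libraries 1 and 3. Reference transcripts of Oas1a alone gave 0.754, 0.389 and 0.781 FPKM in libraries 4, 5 and 6 and 1.16, 1.44 and 0.36 FPKM in libraries 1, 2 and 3, and on that level the groups overlapped. The log2 difference was -0.56 ± 0.15 SE (adjusted p = 0.26 by limma). Oas1a, too, passed the filter only through its controls. Oas2 was at 0.91, 1.01 and 1.96 FPKM in libraries 4, 5 and 6 and 3.78, 1.71 and 4.29 FPKM in libraries 1, 2 and 3. Its groups overlapped through control library 2 and double mutant library 6, and its difference was -0.82 ± 0.29 SE (adjusted p = 0.35 by limma). Much of the level of Oas2 in controls was from assembled transcripts. Reference transcripts alone gave 0.906, 0.242 and 0.792 FPKM in libraries 4, 5 and 6 and 1.27, 0.855 and 0.686 FPKM in libraries 1, 2 and 3, a smaller gap. Oasl2, an OAS-like gene with a ubiquitin-like domain, was at 3.26, 1.71 and 2.98 FPKM in libraries 4, 5 and 6 and 5.27, 3.75 and 3.19 FPKM in libraries 1, 2 and 3. After scaling its groups stood apart by a small margin (log2 difference -0.42 ± 0.17 SE, adjusted p = 0.39 by limma). Oasl1 was under the filter, at 0.56 to 0.84 FPKM in double mutants and 0.48 to 1.14 FPKM in controls.

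Eif2ak2, the gene of the kinase PKR that halts translation on double-stranded RNA, was at 1.69, 1.43 and 1.61 FPKM in libraries 4, 5 and 6 and 2.74, 6.06 and 2.31 FPKM in libraries 1, 2 and 3. The groups did not overlap, and control library 2 stood far above the rest. In library 2 all 4 reference transcripts were at 0 and the whole level came from 1 assembled transcript. The log2 difference was -0.74 ± 0.28 SE (adjusted p = 0.37 by limma), -0.39 without library 2, and -0.19 from reference transcripts alone. Isg20, an exonuclease gene, went the other way through 1 library. It was at 12.5, 1.00 and 2.43 FPKM in libraries 4, 5 and 6 and 1.53, 1.31 and 1.37 FPKM in libraries 1, 2 and 3. Library 4 alone was far above the others, and library 5 lay below every control. The difference of 0.95 had an interval of -0.47 to 2.36 and was 0.18 without library 4. Library 4 also held the most red cell RNA, whose part in the Isg20 value was not tested.

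**Figure D2:**
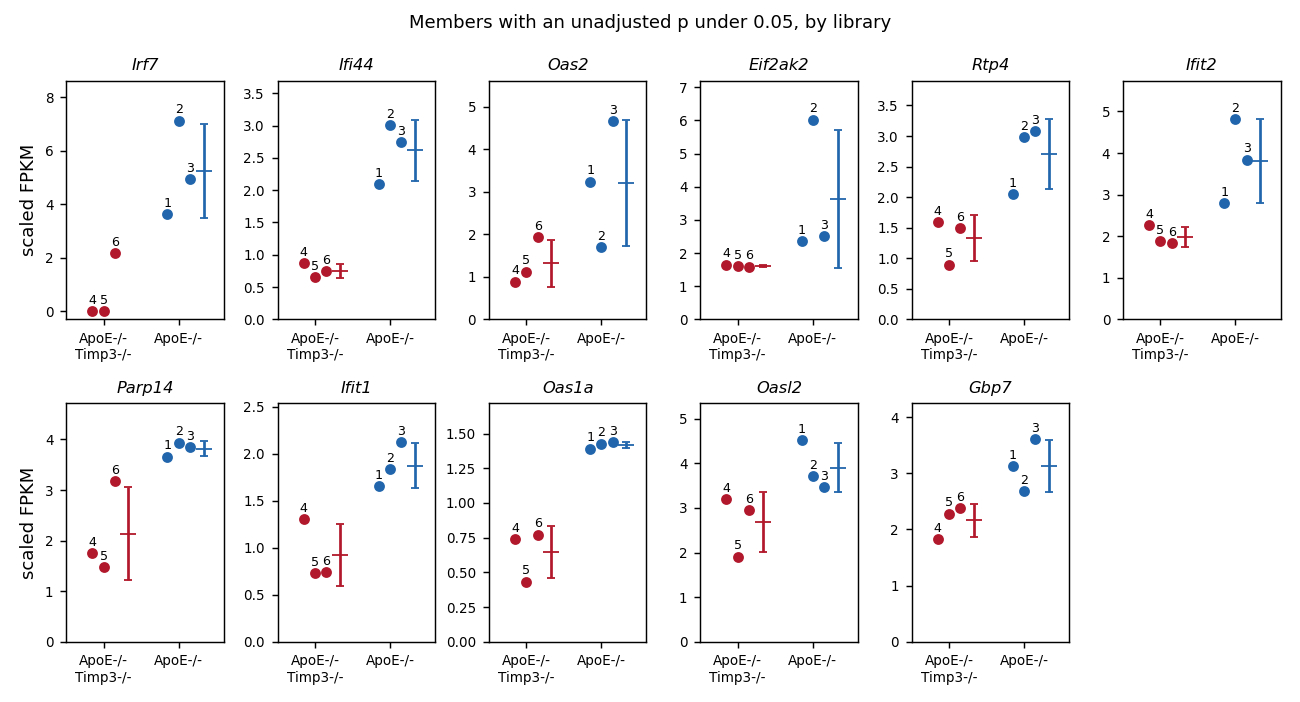
Scaled FPKM (y axis, from 0 up, with room below 0 for Irf7) of the 11 genes with an unadjusted p under 0.05 in each library (points, numbered by library), with double mutants left of controls. Bars are mean ± SD over 3 libraries and are left out for Irf7 in double mutants, where 2 libraries are listed at 0. In 10 of the 11 all 3 double mutants lie below all 3 controls, and Oas2 is the exception. The 11 were chosen by p on these same values, so this is no separate support. No share over all genes was computed, and Irf7 is among the 10 on listed zeros.

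In the ISG15 system the ubiquitin-like protein ISG15 is attached to other proteins. Its genes Isg15 and Usp18 were spread widely among the double mutants. Isg15 was at 3.74, 1.24 and 0.56 FPKM in libraries 4, 5 and 6 and 3.10, 4.46 and 2.44 FPKM in libraries 1, 2 and 3. Library 4 lay among the controls and the other double mutants below them. The Cufflinks intervals were 2.78 to 4.70 FPKM in library 4, 0.69 to 1.80 in library 5 and 0.07 to 1.05 in library 6. These intervals hold counting and assignment error only, not the spread between mice. In library 6 alone, an assembled transcript outside the gene overlapped Isg15 at 1.67 FPKM. The log2 difference was -0.69 ± 0.39 SE (adjusted p = 0.55 by limma). Usp18, the protease that removes ISG15 and damps receptor signalling, also had library 4 among the controls, with 2.39, 0.68 and 0.99 FPKM in libraries 4, 5 and 6 and 2.66, 2.56 and 1.56 FPKM in libraries 1, 2 and 3. Trim25, a ubiquitin ligase that activates RIG-I, averaged 5.06 ± 0.729 scaled FPKM in double mutants and 4.49 ± 0.612 in controls. From reference transcripts alone its difference was -0.35, where it was 0.14 with all transcripts.

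Groups overlapped for all 5 membrane effectors, as they did for most genes. Over all genes tested, 9.21% stood apart with double mutants lower and 9.98% with double mutants higher. Ifitm3, the listed gene with the highest mean FPKM, which blocks virus entry at endosomes, was at 54.5, 24.3 and 29.7 FPKM in libraries 4, 5 and 6 and 45.2, 50.5 and 36.0 FPKM in libraries 1, 2 and 3. Its neighbour Ifitm2 was at 26.2, 13.2 and 16.5 FPKM in libraries 4, 5 and 6 and 23.7, 24.8 and 14.2 FPKM in libraries 1, 2 and 3. In both genes library 4 was the highest of the double mutants and also above the controls after scaling. Bst2, which encodes tetherin and holds budding virus on the cell surface, was at 12.8, 4.57 and 8.77 FPKM in libraries 4, 5 and 6 and 12.8, 13.4 and 9.34 FPKM in libraries 1, 2 and 3. Rsad2, the gene of the radical SAM enzyme viperin, was at 6.56, 0.74 and 2.12 FPKM in libraries 4, 5 and 6 and 2.35, 2.502 and 2.27 FPKM in libraries 1, 2 and 3. Library 4 held the highest and library 5 the lowest value of Rsad2, and its difference was 0.07 with library 4 and -0.48 without it. Ifitm1 averaged 2.64 ± 1.07 scaled FPKM in double mutants and 1.52 ± 0.546 in controls (log2 difference 0.51, adjusted p = 0.52 by limma). Reads shared among these close Ifitm copies could not be checked.

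Guanylate-binding proteins attack the vacuoles of intracellular microbes and respond mainly to interferon gamma. Gbp7 was at 1.87, 2.05 and 2.40 FPKM in libraries 4, 5 and 6 and 3.64, 2.69 and 3.32 FPKM in libraries 1, 2 and 3. All double mutants were below all controls, and here library 4 was the lowest (log2 difference -0.38 ± 0.14 SE, adjusted p = 0.36 by limma). Part of the level in library 5 was from 1 assembled transcript. From reference transcripts alone library 5 was at 1.49 FPKM, below library 4. Gbp3, near Gbp7 on chromosome 3, averaged 2.08 ± 0.984 scaled FPKM in double mutants and 2.92 ± 0.164 in controls, with library 4 at 3.16 and library 5 at 1.01 FPKM. Gbp2 averaged 4.02 ± 0.743 scaled FPKM in double mutants and 3.97 ± 0.601 in controls. Its direction turned under other settings, for example to -0.18 from reference transcripts alone.

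Among the remaining genes, Ifi44 had the smallest unadjusted p of the 31, but it passed the filter only through its controls. Ifi44 (chromosome 3, 151393886 to 151412911, NCBIM37), an antiviral GTPase-like gene, was at 0.89, 0.58 and 0.75 FPKM in libraries 4, 5 and 6 and 2.44, 3.02 and 2.53 FPKM in libraries 1, 2 and 3. The highest double mutant was far below the lowest control. It averaged 0.753 ± 0.108 scaled FPKM in double mutants and 2.61 ± 0.471 in controls. The log2 difference was -1.04 (95% interval -1.39 to -0.69, unadjusted p = 2.0e-04, adjusted p = 0.19 by limma). It stayed between -1.13 and -0.96 whichever library was left out. With libraries weighted by their spread it was -1.10 at an adjusted p of 0.031 by limma, the sole adjusted p under 0.05 for any listed gene. In that fit 101 of 11380 genes passed, against 5 in the main fit. Its weights were 0.35 for library 4 and 3.00 for control library 3. Over the settings tried the adjusted p of Ifi44 ran from 0.031 to 0.53.

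Rtp4, an RNA-binding inhibitor of viral replication, was at 1.63, 0.80 and 1.51 FPKM in libraries 4, 5 and 6 and 2.38, 3.00 and 2.84 FPKM in libraries 1, 2 and 3. The groups were apart, with a log2 difference of -0.67 ± 0.18 SE (adjusted p = 0.26 by limma). Parp14, an ADP-ribosyltransferase gene, was at 1.79, 1.32 and 3.22 FPKM in libraries 4, 5 and 6 and 4.27, 3.96 and 3.55 FPKM in libraries 1, 2 and 3. Its difference of -0.66 ± 0.20 SE (adjusted p = 0.29 by limma) rests on assembled transcripts, which held part of the level in libraries 6, 1, 2 and 3 and none in libraries 4 and 5. From reference transcripts alone it was 0.00166. Ifi27, a mitochondrial protein gene of the interferon response, was at 18.6, 8.58 and 10.7 FPKM in libraries 4, 5 and 6 and 37.1, 16.9 and 13.2 FPKM in libraries 1, 2 and 3. Control library 1 was far above the rest and library 4 above 2 of the controls as deposited.

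Xaf1, which promotes cell death, was at 9.43, 4.14 and 8.21 FPKM in libraries 4, 5 and 6 and 7.14, 9.20 and 9.63 FPKM in libraries 1, 2 and 3, and library 5 was the lowest. All 5 reference transcripts of Xaf1 were at 0 in library 4, where the level came from assembled transcripts. Over the settings tried its difference ran from -1.34 to 0.0419. Ifi35, which binds the STAT-interacting protein NMI, was at 9.25, 4.17 and 5.33 FPKM in libraries 4, 5 and 6 and 6.64, 6.66 and 5.74 FPKM in libraries 1, 2 and 3. Double mutants stood on both sides of the controls, and the difference was -0.02. In all, 6 of the 34 genes had a library with every reference transcript at 0, and in 5 of these, Irf7 being the exception, assembled transcripts carried a level there.

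**Figure D3:**
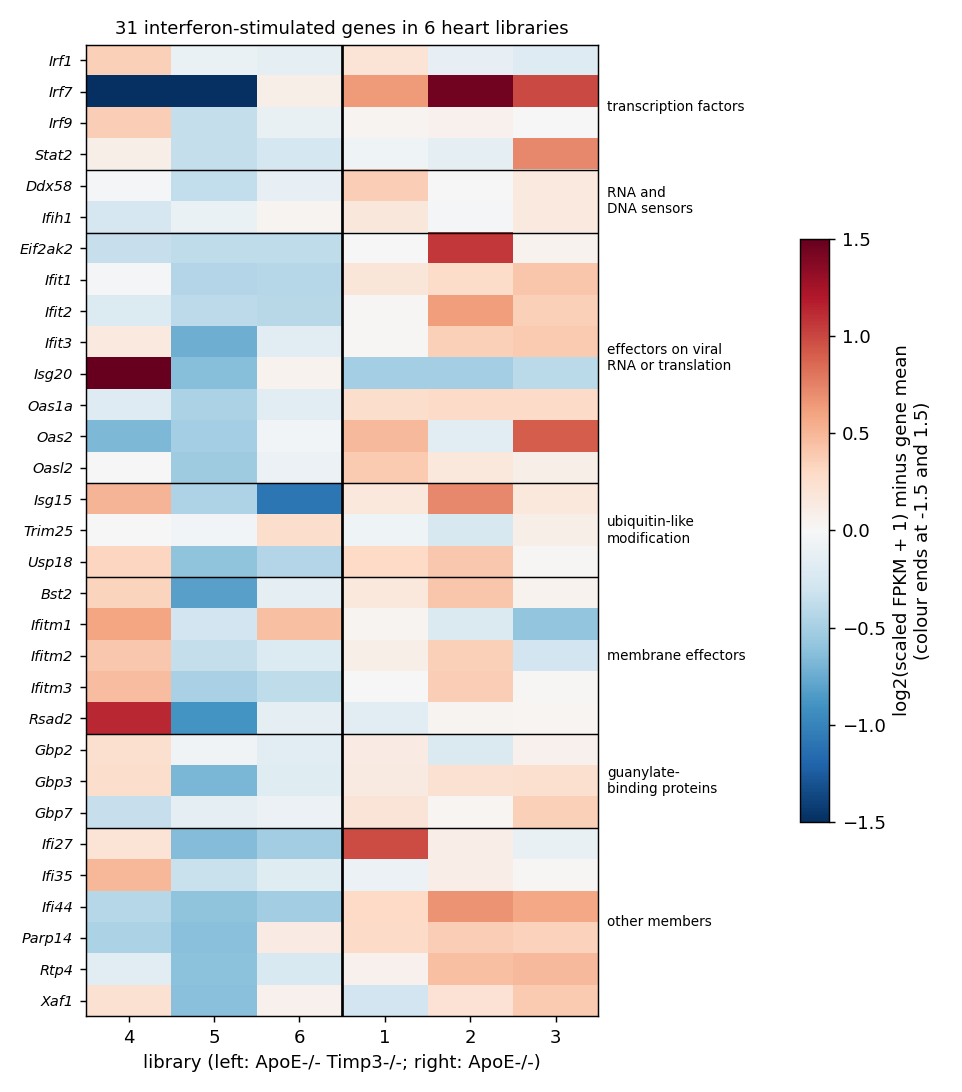
Deviation of each of the 31 genes tested from its own mean over the 6 libraries (colour, log2(scaled FPKM + 1), ends at -1.5 and 1.5), with genes in rows by role and libraries in columns, double mutants left of controls. Library 5 is blue in nearly every row, while library 4 is red for Isg20, Rsad2, Ifitm1, Ifitm3 and Isg15 and blue for Irf7, Oas2 and Parp14.

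The 3 double mutants did not behave alike. The median deviation of the 31 genes from their own means was 0.14, -0.47 and -0.17 in libraries 4, 5 and 6 and 0.13, 0.22 and 0.14 in libraries 1, 2 and 3. Library 4 thus lay level with the controls by this median, and libraries 5 and 6 lay below them. Library 5 was below every control in 27 of the 31 genes, where 28.4% of all tested genes were. For library 6 the count was 21, against 26.2% of all genes. For library 4 it was 13, against 31.9%. Library 4 exceeded both other double mutants in 24 of the 31 (77.4%), against 42% of all genes.

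That library 4 departs from libraries 5 and 6 was known before these fits, so counts without library 4 are no independent support. Each library was left out in turn, and the fits without library 4 and without library 5 are given here. Without library 4, 28 of the 31 lay below 0 (50.1% of all genes did), the median was -0.57, and 16 were lower at an unadjusted p under 0.05, against 6.17% of all genes. Without library 5, 21 lay below 0 (51.3% of all genes), the median was -0.26, and 8 were lower at that p, against 3.29% of all genes. No listed gene passed at an adjusted p under 0.05 in either fit.

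No cell type marker passed at an adjusted p under 0.05, the smallest being 0.237 for Cdh5, but summed levels of some lists moved with the genotypes or with single libraries. Endothelial markers (Pecam1, Cdh5, Kdr, Tek, Tie1, Emcn) summed to 93.1, 65.9 and 82.2 FPKM in libraries 4, 5 and 6 and 118, 121 and 98.5 FPKM in libraries 1, 2 and 3. All 6 of these markers were lower in double mutants, with a median log2 difference of -0.40, and library 5 was the lowest, as for the interferon-stimulated genes. At an unadjusted p under 0.05 by limma, 3 of the 6 were lower, against 5.2% of all genes. In 4 of the 6 the groups stood apart with double mutants lower, against 9.21% of all genes. Fibroblast markers (Col1a1, Pdgfra, Dcn, Lum) summed to 168, 177 and 187 FPKM in libraries 4, 5 and 6 and 283, 193 and 153 FPKM in libraries 1, 2 and 3, with all 4 below 0. Of these 4, 2 were lower at that p and 3 had groups apart. A lean towards lower values was thus not particular to the interferon-stimulated genes. Macrophage markers summed to 70.4, 67.3 and 81.6 FPKM in libraries 4, 5 and 6 and 167, 67.4 and 54.8 FPKM in libraries 1, 2 and 3, with a median difference of -0.03, 4 of the 8 tested lower and 4 higher. Of these 8, 0 reached that p and 0 had groups apart. Markers of T and NK cells summed to 4.34 FPKM in library 4, 0.92 and 1.25 FPKM in libraries 5 and 6 and 0.72 to 1.35 FPKM in controls. For neutrophils the sum was 8.02 FPKM in library 4 and 0.69 to 2.55 FPKM in the other 5 libraries, with the defining gene Ly6g at 0 in all of these 5. B cell markers summed to 0.44 to 2.04 FPKM over all libraries. Of 4 markers of plasmacytoid dendritic cells, Siglech was at most 0.37 FPKM and Ccr9 was at 0 in every library. The other two, which other cells express as well, were tested and lay below 0. Tcf4 was at 6.46, 5.63 and 7.09 FPKM in libraries 4, 5 and 6 and 11.2, 8.95 and 9.32 FPKM in libraries 1, 2 and 3 (log2 difference -0.48, adjusted p = 0.24 by limma), and its groups did not overlap. Bst2, itself a listed gene, is given above. The part of endothelial, fibroblast or blood cell content in the interferon-stimulated genes was not tested.

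**Figure D4:**
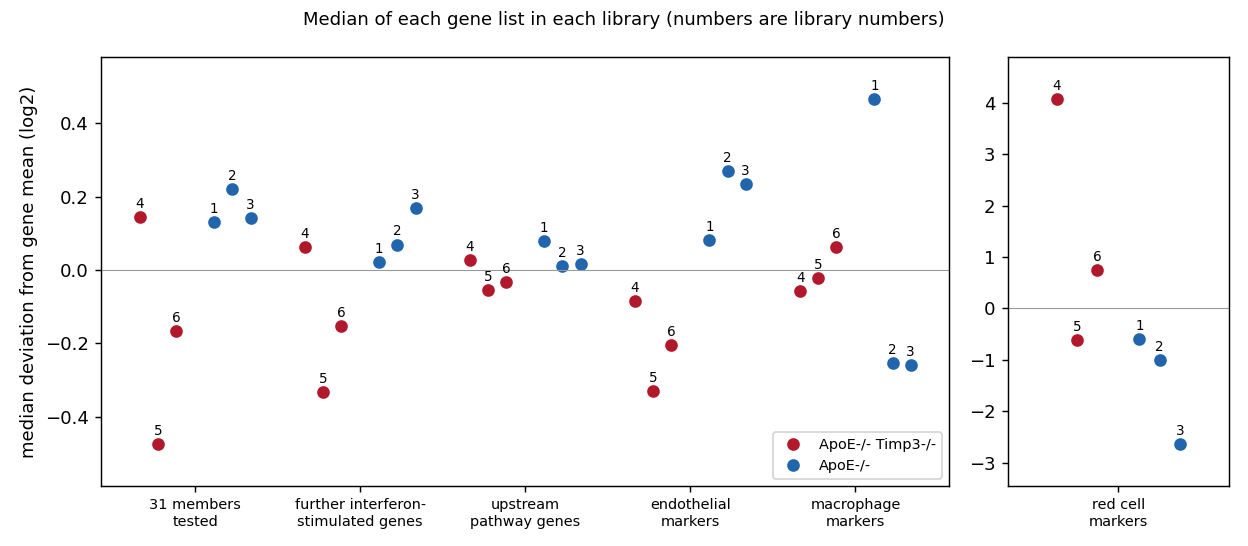
Median deviation from the gene mean (y axis, log2) of each gene list (x axis) in each library (numbered points, red for double mutants, blue for controls), with red cell markers on their own scale at the right. Library 5 is the lowest point for the 31 interferon-stimulated genes (-0.47), for the further ones and for endothelial markers, and library 4 stands at 4.08 for red cells.

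Further interferon-stimulated genes that are not on the list leaned the same way. They too were named with earlier results of these data known, so their counts are no independent support. Of 46 named, 33 were tested, 24 lay below 0 (51.2% of all genes did) and 9 above, with a median of -0.21, and at an unadjusted p under 0.05 the counts were 8 lower and 0 higher, against 5.2% and 6.94% of all genes. None passed over all genes. Cmpk2, a nucleotide kinase next to Rsad2 in the genome, was at 0.81, 0.47 and 1.04 FPKM in libraries 4, 5 and 6 and 1.96, 1.77 and 1.64 FPKM in libraries 1, 2 and 3 (log2 difference -0.63 ± 0.15 SE, adjusted p = 0.25 by limma). Its groups did not overlap, but at 0.782 scaled FPKM in double mutants it passed the filter only through its controls. Cxcl9, also of this list, passed in the same way. Phf11d averaged 1.72 ± 0.248 scaled FPKM in double mutants and 2.77 ± 0.249 in controls. Ifi27l2a averaged 7.12 ± 1.75 in double mutants and 16.0 ± 6.16 in controls. The nuclear body gene Sp100 averaged 11.9 ± 1.93 in double mutants and 19.7 ± 5.71 in controls.

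Genes of that list that were highest in library 4 include 3 singled out here after their values were seen. Igtp, an interferon-gamma-induced GTPase, was at 17.1, 3.10 and 4.07 FPKM in libraries 4, 5 and 6 and 4.56, 5.54 and 4.57 FPKM in libraries 1, 2 and 3. Irgm2, of the same family, was at 13.4, 3.98 and 5.33 FPKM in libraries 4, 5 and 6 and 6.35, 5.33 and 6.14 FPKM in libraries 1, 2 and 3. Samhd1, which depletes nucleotides, was at 17.8, 7.46 and 10.3 FPKM in libraries 4, 5 and 6 and 7.80, 6.91 and 8.26 FPKM in libraries 1, 2 and 3. Library 4 exceeded libraries 5 and 6 in 23 of the 33 genes of this list that were tested (69.7%), against 42% of all genes.

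Interferons, their receptors and the kinases and sensors upstream of the response were listed apart. Of 26 named, 17 were tested, with 13 below 0 (51.2% of all genes were) and 4 above, and a median of -0.10. At an unadjusted p under 0.05, 0 were lower and 0 higher, against 5.2% and 6.94% of all genes. Ifngr2, a chain of the interferon gamma receptor, was at 27.1, 14.5 and 15.8 FPKM in libraries 4, 5 and 6 and 31.8, 21.8 and 30.4 FPKM in libraries 1, 2 and 3 (log2 difference -0.49, unadjusted p = 0.078 and adjusted p = 0.48 by limma). Library 4 lay among the controls. Ifnar1, a chain of the type I receptor, averaged 2.25 ± 0.432 scaled FPKM in double mutants and 2.86 ± 0.215 in controls. Tlr3, an endosomal RNA sensor, averaged 1.43 ± 0.211 in double mutants and 1.93 ± 0.295 in controls. The kinase gene Jak2 averaged 2.98 ± 0.272 in double mutants and 3.58 ± 0.402 in controls. Both were lower in every double mutant than in every control, which makes 2 of 17 (11.8%), near the 9.21% of all genes tested. The interferon gene Ifnb1 was listed at 0 in all 6 libraries, as was Ifnar2, the other receptor chain. Ifng was listed at 0.06 FPKM in library 6 and at 0 in the other 5. Irf8 and Gbp6 were not analysed here.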

How the data were processed

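RNA from 6 hearts was extracted with Trizol and sequenced, per the labels. The authors deposited 1 Cufflinks file per library that gives every transcript an FPKM with its interval. The submitters' processing notes list TopHat, Bowtie, Cufflinks and the build NCBIM37. The sources used here do not give versions, settings or strand use. FPKM are not counts, so no count test was run.

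FPKM were summed by gene over reference transcripts and over assembled transcripts of at least 300 nt sharing at least 50% of exonic bases with a gene (39146 of 70603). Genes with a mean of at least 1 FPKM and a transcript of at least 300 nt were scaled by the median of ratios (factors 0.896 to 1.17). On log2(scaled FPKM + 1), which understates differences of low genes, limma 3.58.1 in R 4.3.3 was fitted with a trend, without a block, two-sided, adjusted by Benjamini-Hochberg over all genes. It was tested on simulated data. Single-library values are as deposited, and means ± SD are of scaled FPKM. The labels do not say how samples relate beyond littermates, so each p-value reflects only how far these samples spread. Intervals from Cufflinks cover counting and assignment error only.

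Members and lists were chosen with earlier results of these data known. Members with an unadjusted p under 0.05, the 6 most abundant ones and those listed at 0 were given in every library, with up to 4 genes of smallest p from each pathway list. Mb21d1, Hbb-b1 and Hbb-b2 were matched under later symbols. Alternatives covered scaling, pseudocount, filter, transcripts used, weights, variance prior, listed zeros and each library left out.

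One gene of the upstream list is not reported here.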

Additional observations from a re-analysis of the deposited data

How the results depend on the processing

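Over 19 settings, 21 of the 31 genes tested kept their direction wherever they could be fitted. No paired analysis was possible because the labels share no replicate number between the groups. The count of all genes past the threshold, 5, was 0 with genes with a listed zero left out (limma, with 610 of 11077 genes lower at an unadjusted p under 0.05), 1 at a mean of at least 5 FPKM, 1 with a pseudocount of 10, 3 with a pseudocount of 0.1, 9 without a filter and 101 with libraries weighted by their spread. With 1 library left out it ran from 3 (without library 1) to 11 (without library 2), and it was 10 without library 4. At a mean of at least 5 FPKM only 7 listed genes entered, 6 lower and 1 higher. Scaling to the same summed FPKM moved the median of all genes to -0.16 and left 2 listed genes higher (29 lower). With 1 library left out, 21 to 28 were lower, 3 (without library 4) to 10 (without library 5) higher, and the median was -0.57 to -0.26. The median was -0.10 with a pseudocount of 10 and -0.51 with a pseudocount of 0.1.

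Some genes changed sign, among them Parp14, Ddx58 and Xaf1, whose differences were -0.66, -0.34 and -0.22. Gbp2 was at -0.0491 without further scaling, -0.15 with the summed scaling, -0.18 from reference transcripts, -0.0601 from the strongest transcript and -0.11 with weights. Rsad2 was at -0.0744 with the summed scaling, -0.0288 with a pseudocount of 0.1 and -0.37 with weights. Irf1 was at -0.0872, -0.00504 and -0.18, and Trim25 at -0.0165, -0.35 and -0.59, with the summed scaling, reference transcripts and the strongest transcript. Ifi35 was at 0.00324 with a pseudocount of 10, Parp14 at 0.00166 from reference transcripts and Ddx58 at 0.0605 from the strongest transcript. With 1 library left out, Rsad2 ran from -0.48 to 0.54, Gbp2 from -0.10 to 0.0987, Irf1 from -0.0752 to 0.20, Ifitm2 from -0.33 to 0.0508, Ifi35 from -0.27 to 0.15, Xaf1 from -0.42 to 0.0419 and Irf9 from -0.27 to 0.0921. The fitted difference of Irf7 ran from -4.18 to -0.51 over settings. The causes were not tested. Depth is known as aligned bases, not reads, so no counting limits are given for single genes.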
